A study of Homo sapiens with 6 samples.

Results

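The close pairs are genes whose 2 most used polyadenylation sites (PASs) lay less than 100 nt apart in the 3′ UTR. They were chosen by position alone, as the distance between the proximal PAS (pPAS) and the distal PAS (dPAS) listed for each gene, and the rule used no measured usage. It took in 294 of 2723 PAS pairs (10.8%), 1 per gene, after 1 repeat row of MEMO1 had been dropped. The other 2429 pairs, at least 100 nt apart, are called wider pairs.

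The libraries were made from HL-60, a human promyelocytic leukemia cell line that can be driven towards macrophages by phorbol-12-myristate-13-acetate (PMA). OE-CFIm25 cells carried a lentiviral construct for CFIm25 behind the EF-1a promoter, and OE-control cells carried its control. Both groups had 3 nM PMA for 6 h, with 3 samples in each, and the labels do not say whether these came from separate cultures. RNA 3′ ends were read by QuantSeq FWD, and the comparison asks whether extra CFIm25 moves PAS choice during differentiation.

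An mRNA 3′ end is made by cutting the transcript and adding a poly(A) tail. The cut usually falls a short way downstream of a poly(A) signal, AAUAAA or AUUAAA in the RNA, which the CPSF complex reads. CFIm25, the product of NUDT21, is a subunit of cleavage factor I and binds UGUA upstream of the cut. Where a gene has more than 1 PAS, use of the pPAS gives a short 3′ UTR and use of the dPAS a long one. In a close pair the isoforms differ only in the short stretch between the cuts, and each cut may have a poly(A) signal of its own.

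The measure is the relative expression difference (RED). It takes the reads at the dPAS over those at the pPAS as a log2 ratio, in OE-CFIm25 minus in OE-control. A negative RED means relatively more pPAS use, a shorter 3′ UTR, in OE-CFIm25. The authors deposited 1 RED and 1 adjusted p per gene and the tables used here give no ratio per sample, so the spread between samples cannot be shown beside a RED, and no difference between close and wider pairs was tested over samples. A gene was called where its RED exceeded log2(1.2), 0.26, in size and the deposited adjusted p was under 0.05. Reads counted for a PAS when their last aligned base lay within 24 nt of it. Up to a distance of 48 nt the windows of both PASs therefore overlap, and the sources used here do not say to which PAS a read in the overlap was assigned. The 6 libraries held 3525582 to 3845872 reads at PASs in genes.

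The sequences of 5 pairs more than 30 nt apart are shown because they are the 3 called pairs and a pair of those with the highest RED. Each is the 30 nt up to and including the PAS, in transcript sense on hg19, with AATAAA or ATTAAA in capitals.
TAB2 dPAS, chr6:149732712-149732741, plus strand: tatttataaaaATTAAAaaacttatattct
TAB2 pPAS, chr6:149732630-149732659, plus strand: ttattAATAAAacgtaatttggatatcttg
FERMT3 dPAS, chr11:63991334-63991363, plus strand: tataaattaatattttattgttggatcctc
FERMT3 pPAS, chr11:63991270-63991299, plus strand: ctacaggatgatgaaacatggtttcaaacg
OAZ1 dPAS, chr19:2273294-2273323, plus strand: gctttaattctaAATAAAaatttatatttt
OAZ1 pPAS, chr19:2273209-2273238, plus strand: ttgtaatcgtgcaAATAAAcgctcactccg
CLK3 dPAS, chr15:74922512-74922541, plus strand: ccttattAATAAAgtctttcttagcagttc
CLK3 pPAS, chr15:74922428-74922457, plus strand: agttatAATAAAgtgtttcttactgtttgt
FBXO30 dPAS, chr6:146119274-146119303, minus strand: atttaAATAAAattttaatacttgtttgac
FBXO30 pPAS, chr6:146119332-146119361, minus strand: caagttctAATAAAattaatgttttccctt
In TAB2, OAZ1, CLK3 and FBXO30 each PAS had a signal of its own, and in FERMT3 neither PAS had AATAAA or ATTAAA.

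Pairs under 30 nt apart fit into 1 run, since the pPAS itself lies within the 30 nt up to the dPAS. The next 4 are examples at 25 to 29 nt, all with a signal at the dPAS alone, as in 31 of the 46 pairs at 25 to 30 nt. In each the signal in capitals stands between the pPAS and the dPAS.
FTL, chr19:49470106-49470135, plus strand, pPAS at base 2: ggaccaaatggaAATAAAgctttttgatgc
RPL23, chr17:37006339-37006368, minus strand, pPAS at base 1: taaaaAATAAAaaaaaaaactaaacccatt
COX7A2, chr6:75947503-75947532, minus strand, pPAS at base 4: actgccaccAATAAAgcagtctttaccatg
ALDOA, chr16:30081705-30081734, plus strand, pPAS at base 5: cactgccaAATAAAcagctatttaaggggg
Bases are counted from the 5′ end of each run. None of these 4 genes had AATAAA or ATTAAA in the 40 nt up to the pPAS, so the only such signal stood downstream of the pPAS and upstream of the dPAS.

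The distance within close pairs ran from 25 to 99 nt, with a median of 56 nt. A count of 116 pairs lay at 48 nt or less, of which 46 lay at 25 to 30 nt, and 178 lay at 49 to 99 nt. The pairs were spread over 23 chromosomes, 144 on the plus and 150 on the minus strand. By the GENCODE annotation both PASs fell in the last-exon 3′ UTR in 291 pairs, and the exceptions were CRNDE, RPS13 and TRIM28. The dPAS stood a median of 807 nt past the stop codon and the pPAS 736 nt in close pairs, against 2032.5 nt and 668 nt in wider pairs. By the rule, the dPAS of a close pair could not lie far past its pPAS. The contrast in the dPAS values therefore follows largely from the rule. All these values are genomic distances on 1 annotated transcript per pair. Any intron after the stop codon is counted in them, so some are far too long for a 3′ UTR, such as 156070 nt for the pPAS of SMARCA2.

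The short isoform of a close pair dropped little of the 3′ UTR, a median of 7.19%, against 57.7% in wider pairs. The 3′ UTR is taken here as the genomic distance from the stop codon to the dPAS, so a counted intron lowers the share. The part dropped is the distance between the PASs, which the rule itself limited. The contrast with wider pairs therefore follows largely from the rule and is not read as a trait of close pairs. In 46 of the 291 pairs the short isoform dropped more than 25%, and in 11 more than 50%. Those 11 were genes with very short 3′ UTRs, whose dPAS stood 46 to 159 nt past the stop codon. The ribosomal protein gene RPL23 lost 63.0% of its 3′ UTR over 29 nt and RPL14 62.2% over 84 nt. SAP18, of a histone deacetylase complex, lost 72.6% over 53 nt and the tubulin gene TUBA4A 73.1% over 49 nt. In these genes the bases between the PASs were most of the 3′ UTR. Their RED values were 0.52 in RPL23, −0.22 in RPL14, −0.29 in SAP18 and 0.19 in TUBA4A, and none of them was called.

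Of the close pairs, 3 of 294 were called and all 3 were shortened in OE-CFIm25. Over all 2723 pairs 0.367% were called and 0.294% were called shortened. The share in close pairs was 1.02%, but it rests on 3 genes, and no test of its difference from the wider pairs was made. The called close genes were TAB2, FERMT3 and OAZ1, which work in unrelated processes.

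TAB2 encodes the adaptor that brings ubiquitin chains to the kinase TAK1 upstream of NF-κB. It had the lowest RED of all close pairs, −1.26, and the deposited adjusted p was 0.0290. Its ratio of dPAS to pPAS reads in OE-CFIm25 was thus 0.418 times that in OE-control. The PASs were 82 nt apart, the dPAS 1886 nt and the pPAS 1804 nt past the stop codon, so that the short isoform left out 4.35% of the 3′ UTR. UGUA occurred once in the 100 nt up to the dPAS and not in those up to the pPAS.

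FERMT3 encodes kindlin-3, which switches on integrins in blood cells. With PASs 64 nt apart, its RED was −0.95 and its deposited adjusted p 0.0249. The short isoform left out 16.0% of the 3′ UTR. OAZ1 encodes antizyme, which sends ornithine decarboxylase to the proteasome and so limits polyamine synthesis. Its PASs were 85 nt apart and its RED was −0.87, with the lowest deposited adjusted p of the close pairs, 0.0136. Here the short isoform left out 39.4%, the most of the 3 genes. In FERMT3 and in OAZ1, unlike TAB2, UGUA occurred equally often, 1 time each, in the 100 nt up to the dPAS and up to the pPAS.

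**Figure D1:**
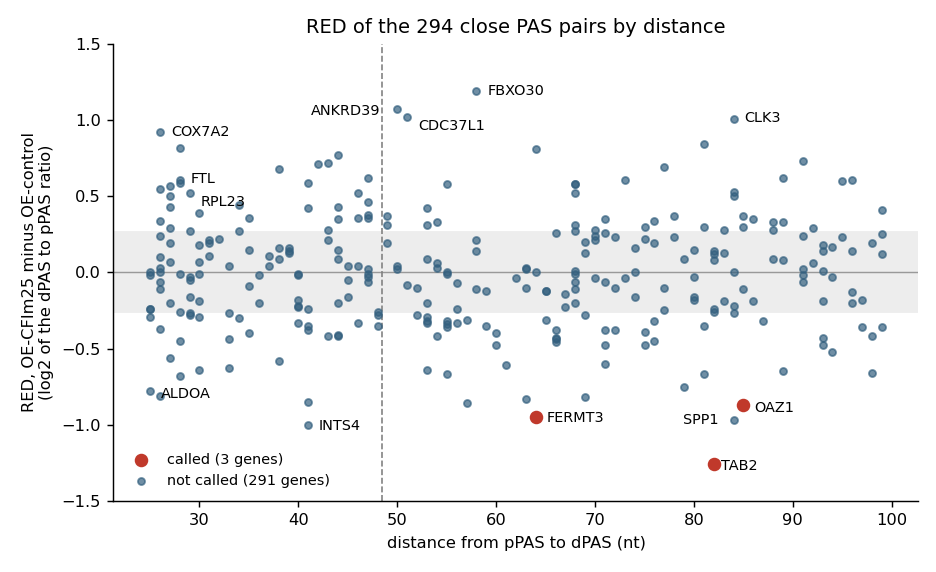
Each point is 1 of the 294 close pairs, by the distance from pPAS to dPAS in nt and the RED on the log2 scale; the grey band marks RED within log2(1.2), the dashed line the distance up to which the counting windows overlap. The 3 called genes, in red, all lie below −0.8 and beyond 48 nt, while pairs up to 48 nt reach RED values of −1.0 to 0.92 without being called. Over all pairs, close and wider, 0.367% were called.

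A large RED was often reached without a low p. A RED of at least 0.8 in size was seen in 19 close pairs (6.46%), 11 negative and 8 positive, of which 3 were called, against 172 wider pairs (7.08%), of which 6 were called. The median adjusted p of these 19 pairs was 0.672, against 0.495 for the 172. The highest RED of the close pairs belonged to FBXO30, an F-box subunit of an ubiquitin ligase, at 1.19, with a deposited adjusted p of 0.682. ANKRD39 (RED 1.07) and CDC37L1, a co-chaperone of HSP90 (RED 1.02), had deposited adjusted p-values of 0.743 and 0.775. These 3 RED values were larger in size than that of OAZ1, with far higher p-values. Without read counts per gene and sample, their precision cannot be given.

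On the positive side, the pair closest to a call was FTL, the ferritin light chain that stores iron, with a RED of 0.59 at 28 nt and a deposited adjusted p of 0.0826. CLK3, a kinase of SR splicing factors, had a RED of 1.01 at 84 nt (adjusted p = 0.196 in the authors' table). RPL23 (0.52 at 29 nt) and COX7A2, a cytochrome c oxidase subunit (0.92 at 26 nt), shared a deposited adjusted p of 0.248. The RED of SH3BGRL3 was 0.57 at 27 nt (adjusted p = 0.396 in the authors' table). Of these 5 uncalled pairs all but CLK3 lay within 29 nt, well inside the overlap of the counting windows. They were picked by sign and adjusted p, and among all 46 pairs at 25 to 30 nt RED was negative in 24 and positive in 20.

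On the negative side, NXT1, a cofactor of the mRNA export receptor, had a RED of −0.82 at 69 nt (adjusted p = 0.203 in the authors' table). BUD23, an rRNA methyltransferase, had one of −0.48 at 75 nt with 19 A in the 20 nt after its pPAS. TIMM9, of mitochondrial protein import, had −0.66, the myosin light chain gene MYL12B −0.52 and the chaperonin subunit gene CCT4 −0.42, at 94 to 98 nt and with deposited adjusted p-values of 0.292 to 0.392. These pairs lay at 69 to 98 nt, but they were picked by sign and adjusted p. Among all 85 pairs at 75 to 99 nt RED was negative in 39 and positive in 45, with a median of 0.06. Lower RED values with higher p-values were those of INTS4 of the Integrator complex (−1.0 at 41 nt, adjusted p = 0.775), SPP1, which encodes osteopontin (−0.97 at 84 nt, adjusted p = 0.848), and OSBP, an oxysterol-binding protein (−0.88 at 85 nt, adjusted p = 0.517), all by the authors' deposited table.

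At the edges of the rule the values were ordinary. The shortest distance, 25 nt, was that of 6 pairs. Among them ALDOA, the glycolytic aldolase, had a RED of −0.78, while the calcium-binding tescalcin gene TESC had 0.00. The complex I gene NDUFS5 had −0.29, and the autophagy gene GABARAP and BTBD2 had −0.24 each. At 99 nt, just inside the limit, SPCS2 of the signal peptidase had a RED of 0.41, COA4 0.25, VPS36 of ESCRT-II 0.12 and the mitochondrial glycine carrier gene SLC25A38 −0.36. Just outside, SEC11C at 100 nt had 0.21, and at 101 nt ITGB2 had 0.22, DKC1 −0.02 and NDUFA2 −0.32.

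As a whole the close pairs did not lean to either isoform. Their median RED was −0.01, with 149 negative, 139 positive and 6 at 0, against a median of −0.03 in wider pairs, with 1301 negative, 1105 positive and 23 at 0. The share of negative values was 50.7% in close and 53.6% in wider pairs. A RED past the threshold, regardless of p, was reached by 150 of 294 close pairs (51.0%), where all pairs gave 48.8%. Of these, 79 were negative and 71 positive, while over all pairs 27.1% were past it and negative and 21.7% past it and positive. Both shares in close pairs are near those of the whole table.

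The spread was as wide in close as in wider pairs. The interquartile range of RED was 0.53 in close pairs and 0.51 in wider pairs, and the SD over genes was 0.40 against 0.42. A RED of 1 or more in size was seen in 6 of 294 close pairs (2.04%) and 72 of 2429 wider pairs (2.96%), where all pairs gave 2.86%. With so few close pairs of that size, no difference is read from these shares. In steps of distance, the interquartile range was 0.53 at 25 to 48 nt, 0.53 at 49 to 74 nt, 0.54 at 75 to 99 nt, 0.51 from 100 nt, 0.49 from 200 nt, 0.49 from 500 nt, 0.51 from 1000 nt and 0.53 from 2500 nt, each of the last 5 steps ending where the next begins. Over the same steps the median RED was 0.00 at 25 to 48 nt, −0.06 at 49 to 74 nt and 0.06 at 75 to 99 nt, and beyond 100 nt it lay between −0.05 and 0.00. Neither measure ran one way with distance. Across the 294 close genes, distance had a Spearman's rho of −0.0135 with RED and of 0.0191 with its size (Pearson's r −0.0276 and 0.0181), given as a description, since all points come from the same 6 libraries and genes are not replicates.

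**Figure D2:**
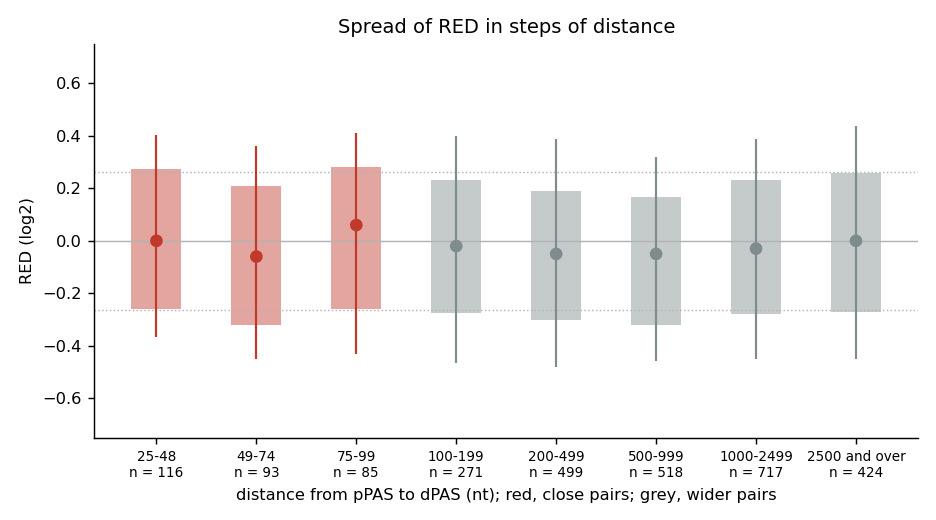
Points give the median RED (log2) in each step of distance, boxes the quartiles and vertical lines the mean ± SD over genes; close pairs are red, wider pairs grey, and dotted lines mark a RED of log2(1.2) either way. The interquartile range stays between 0.49 and 0.54 in all 8 steps.

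The 116 pairs at 48 nt or less, where the counting windows overlap, had a RED with an interquartile range of 0.53 and an SD of 0.39, with 1 pair at 1 or more in size. Their median was 0.00, with 57 negative and 57 positive values and 59 (50.9%) past the threshold. None of the 116 was called, and the lowest adjusted p among them was that of FTL. Over all pairs 0.367% were called, and at that share a set of this size can hold none. The 178 pairs at 49 to 99 nt had an interquartile range of 0.56 and an SD of 0.41, with 5 pairs at 1 or more in size. They had a median of −0.03, 92 negative and 82 positive values and 91 past the threshold, and held all 3 calls.

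Where a PAS of a close pair had a poly(A) signal, the signal stood at about the same distance as in wider pairs. It began a median of 21 nt before the dPAS (quartiles 18 and 24 nt) and 21 nt before the pPAS (18 and 23 nt) in close pairs, against 20 nt and 21 nt in wider pairs. AATAAA or ATTAAA, searched on the transcript strand in the 40 nt up to the PAS, stood at 73.8% of dPASs and 56.1% of pPASs in close pairs, against 81.1% and 55.4% in wider pairs. In a 40 nt window more than 100 nt upstream of the pPAS it was found in 4.42% of close and 3.58% of wider pairs. Both PASs had a signal in 125 close pairs (42.5%), the dPAS alone in 92, the pPAS alone in 40 and neither in 37. All 217 signals at a dPAS began after the pPAS, which the 40 nt window makes certain at distances of 40 nt or more.

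**Figure D3:**
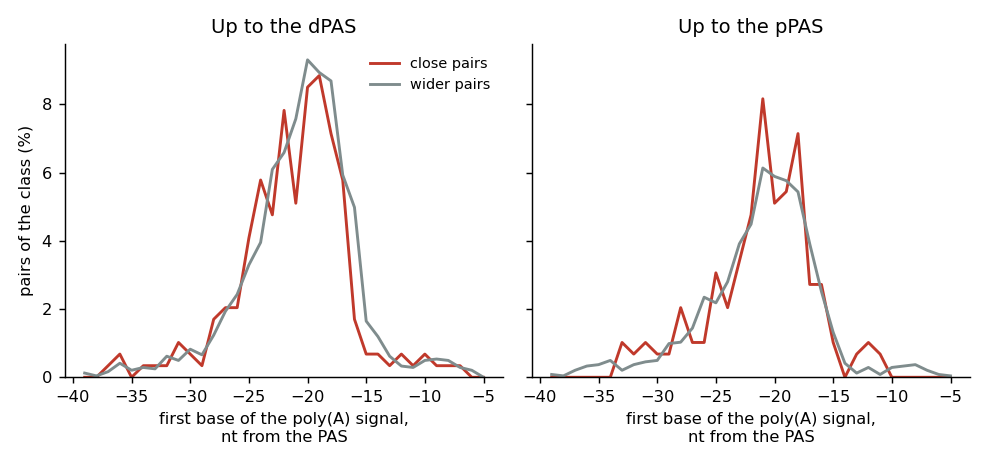
The share of pairs (%) whose poly(A) signal begins at each position, in nt from the dPAS (left) or the pPAS (right), for close (red) and wider (grey) pairs. In both panels the close and the wider pairs peak at about the same place, with medians of 20 or 21 nt before the PAS.

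The pairs at 25 to 30 nt, a step chosen after the data were seen, differed from the other steps in where a signal was found. A poly(A) signal was present at 84.8% of their dPASs but at only 21.7% of their pPASs (10 of 46), whereas from 31 nt on the pPAS had one in 52.8% to 65.4% of the pairs of each step. In 31 of these 46 pairs the dPAS alone had a signal, as in FTL, RPL23, COX7A2 and ALDOA. All 39 dPAS signals of these pairs lay whole within the 20 nt after the pPAS. At these distances the usual place of a dPAS signal falls there. So, for most of these pairs, the pPAS stood just upstream of the only such signal of the pair. The RED of the 46 pairs was 24 times negative, 20 times positive and 2 times 0, with a median of −0.01 and 24 pairs past the threshold.

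A run of A in the genome after a PAS matters for this assay, because oligo(dT) can prime on it within a transcript. The term A-rich is used here for a PAS with 12 or more A, or 6 A in a row, in the following 20 nt. This held for 4.76% of dPASs and 20.1% of pPASs (59 pairs) in close pairs, against 10.9% and 27.5% in wider pairs. The share of A-rich pPASs was not even over the distances, at 30.4% at 25 to 30 nt, 38.5% at 31 to 39 nt, 13.6% at 40 to 48 nt, 17.2% at 49 to 74 nt and 15.3% at 75 to 99 nt. Below 40 nt the dPAS signal, itself mostly A, can lie in the window, and it did so in 12 of the 14 A-rich pPASs at 25 to 30 nt and in 5 of the 10 at 31 to 39 nt.

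None of the 59 close pairs with an A-rich pPAS was called, where 2 of the 669 such wider pairs and 0.367% of all pairs were. The median RED of the 59 was −0.10, with 32 negative, against 0.00 with 117 negative in the other 235. At 48 nt or less the median of the 30 A-rich pairs was 0.05, and at 49 to 99 nt that of the 29 A-rich pairs was −0.20, with 18 negative. In wider pairs the median was −0.08 in 669 A-rich pairs, 398 of them negative, against −0.02 in the other 1760. The part of internal priming in these values was not tested.

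**Figure D4:**
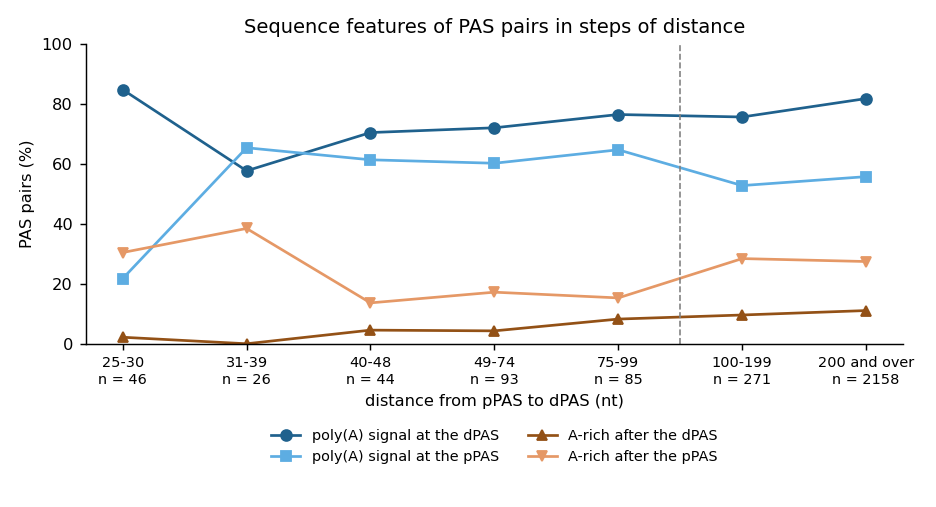
The share of pairs (%) with a poly(A) signal (blue) and with A-rich sequence after the PAS (brown), at the dPAS and the pPAS, in steps of distance; the dashed line separates close from wider pairs. At 25 to 30 nt the signal is at 84.8% of dPASs and 21.7% of pPASs, and from 31 nt on the pPAS share is above 50%.

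RED varied little between the classes of signal. The median was −0.02 in the 125 pairs with a signal at both PASs, −0.01 in the 92 with one at the dPAS alone, 0.05 in the 40 with one at the pPAS alone and −0.04 in the 37 with none. All 6 close pairs with a RED of 1 or more in size (TAB2, INTS4, FBXO30, ANKRD39, CDC37L1 and CLK3) had a signal at both PASs, a class that held 42.5% of the close pairs. In wider pairs a RED of that size was seen in 2.97% of pairs with a signal at both PASs, 2.68% with one at the dPAS alone and 4.42% with none. Of the called genes, TAB2 and OAZ1 were in the class with a signal at both PASs. FERMT3 was in the class with neither AATAAA nor ATTAAA at either PAS.

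UGUA, the motif CFIm25 binds, was counted on the transcript strand in the 100 nt up to each PAS, windows that share bases in every close pair. The dPAS had 0.772 ± 0.850 and the pPAS 0.905 ± 0.962 copies in close pairs (SD over 294 genes), a difference of −0.133 ± 1.01. In wider pairs the dPAS had 0.964 ± 1.01 and the pPAS 0.724 ± 0.934, a difference of 0.240 ± 1.36 (SD over 2429 genes). The mean difference was negative in close and positive in wider pairs. Between the PASs at least 1 UGUA was found in 86 of 294 close pairs (29.3%), at 0.645 per 100 nt, against 0.590 per 100 nt in wider pairs.

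The median RED was −0.10 in the 62 close pairs with more UGUA at the dPAS (37 negative), 0.00 in the 143 with equal counts and 0.02 in the 89 with fewer (41 negative). With UGUA between the PASs the median was −0.09 (86 pairs, 49 negative), against 0.00 without it (208 pairs, 100 negative). No test of these shifts was made. Of other features of the bases between the PASs, the core AU-rich element ATTTA occurred in 52 close pairs (17.7%), and the median GC content was 28.3%, against 38.2% in wider pairs. The stretches compared are unlike, with a median distance of 56 nt just before the dPAS in close pairs and 907 nt in wider pairs. The GC content and the UGUA per 100 nt between the PASs are therefore not read as traits of close pairs.

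The share of genes with a close pair differed between gene groups, and no test of enrichment was made. Groups were formed by gene symbol, and 88 of the 294 genes fell into 1 of them. Of the 10 cytosolic ribosomal protein genes in the table, 8 had a close pair (80.0%, where all genes gave 10.8%). RED was 0.52 in RPL23, 0.37 in RPSA, 0.02 in RPL26L1, −0.11 in RPS2, −0.22 in RPL14 and −0.36 in RPS13, and no gene of the group was called. RPS13 is also 1 of the 3 genes whose PASs were not in an annotated last-exon 3′ UTR. Of 25 mitochondrial ribosomal protein genes, 6 had a close pair, with a median RED of −0.17 and none called, from 0.53 in MRPS14 to −0.38 in MRPS23. The respiratory chain had 4 of 14, with COX7A2 highest and NDUFS5 lowest at −0.29.

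The cleavage and polyadenylation factors themselves had 3 close pairs among 11 genes. CPSF7, the partner of CFIm25 also known as CFIm59, had a RED of −0.24 at 82 nt, CPSF1, the largest subunit of CPSF, had one of −0.28 at 29 nt, and CLP1 of cleavage factor II had 0.16 at 38 nt. None of the 3 was called, and their deposited adjusted p-values ran from 0.928 to 0.980.

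Among cell surface and cytoskeletal genes, 7 of 34 had a close pair, with FERMT3 called. ITGA6, an integrin subunit, had a RED of 0.84 and ITGB1 one of −0.16, and neither was called. Of the NF-κB and TAK1 group, 2 of 23 had a close pair, TAB2 and the kinase gene IRAK1, whose RED was −0.06 at 26 nt. The chaperones had 3 of 25, all negative, with HSPA14 at −0.85, CCT4 at −0.42 and CCT5 at −0.19, none called.

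Ubiquitin ligases and deubiquitinases had 7 close pairs of 92, with a median RED of 0.35, 2 negative and 5 positive, among them FBXO30 and the antiviral restriction factor gene TRIM5 (0.59). All 6 close pairs of solute carriers, of 47 in the table, had a RED past the threshold, as did 48.8% of all pairs. At either end were the zinc importer gene SLC39A6 at 0.50 and the zinc exporter gene SLC30A1 at −0.41. Vesicle traffic had 9 of 92, of which only the syntaxin gene STX2 (−0.65) and the Rab GTPase gene RAB8A (−0.43) were past the threshold. Of 37 chromatin genes 5 had a close pair, with the histone demethylase gene KDM4A at 0.62 and the SWI/SNF subunit gene SMARCD1 at −0.43. The symbols that start like MAP kinases or cell cycle genes gave 5 of 34, with CDCA7 at 0.62 and CDC37L1 at 1.02, though neither of these 2 is a kinase. Zinc finger genes were few, 4 of 79 (5.06%), with none past the threshold. No gene of these last 6 groups was called, where 0.367% of all pairs were. With so few close pairs in each, these counts are not read as traits of the groups.

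**Figure D5:**
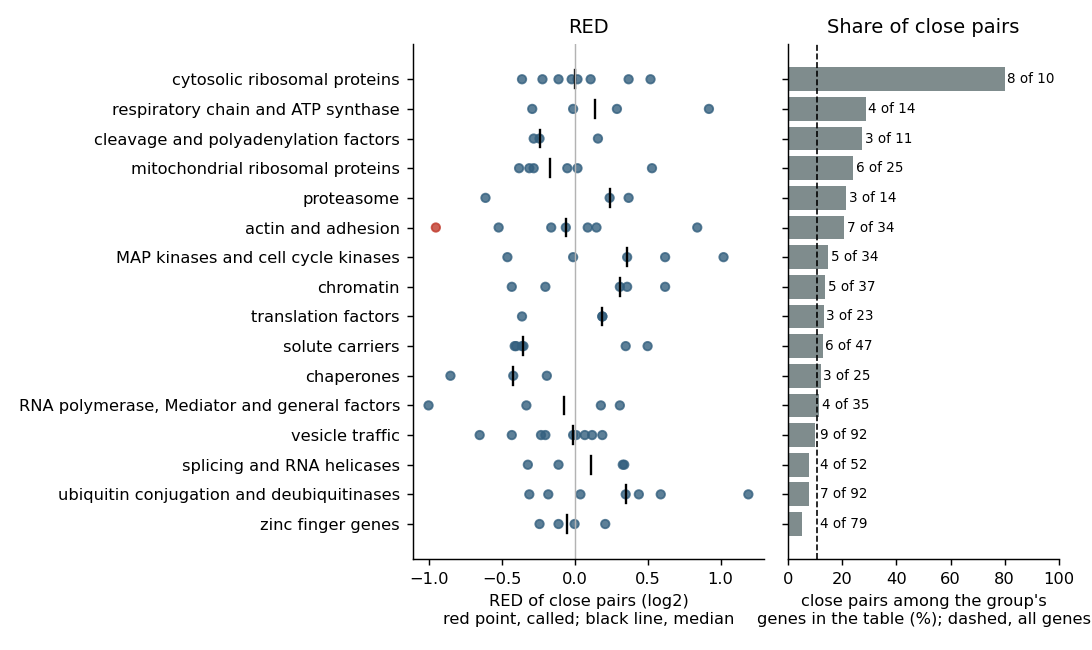
Left, the RED (log2) of each close pair in the gene groups with at least 3 of them, with the group's median as a black line and a called gene in red; right, close pairs as a share (%) of the group's genes in the table, with the share of all genes, 10.8%, dashed. Cytosolic ribosomal proteins have 8 of 10 close pairs with RED on both sides of 0, and FERMT3 is the only called gene in the groups drawn.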

How the data were processed

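QuantSeq FWD libraries of PMA-treated HL-60 cells, 3 of OE-CFIm25 and 3 of OE-control, were compared. Per the methods and processing notes, the authors trimmed read 2, aligned it to hg19 with STAR 2.7.7a, assigned it to PolyA_DB version 3 sites, scaled to RPM and took the 2 most used PASs. RED is a log2 value deposited by the authors per gene. The deposited p-value is adjusted, headed as Fisher, while the methods name DEXSeq. The authors also deposited read counts for 6 libraries whose numbers match no sample, given here only over all 6. RED and p are the authors' own comparison and the table holds no other values.

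Distance was dPAS minus pPAS in transcript sense. Sequence came from GRCh37 and annotation from GENCODE release 44 mapped to it. Python 3.11.15, numpy 2.4.6, pandas 2.3.3, scipy 1.17.1 and matplotlib 3.10.9 were used, and the scripts were tested on simulated data. Members and lists were chosen with earlier results of these data known. Genes were named if called, if among the 10 lowest adjusted p-values of uncalled pairs, if among the 5 highest or 5 lowest RED, if at the edges of distance (3 each, with ties) or if among the 2 largest RED of a group with at least 5 close pairs. Further group members, and those with the largest loss of 3′ UTR, were named after their values were seen, and 2 genes are not reported here. Alternatives covered the distance limit, thresholds, sequence windows and motif variants. CFIm25 overexpression and cell type markers cannot be checked in RED, which gives no level.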

Additional observations from a re-analysis of the deposited data

How the results depend on the processing

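Of 64 alternatives run, 54 left their result about where it was. The median RED stayed between −0.03 and 0.00 and the share of negative values between 49.1% and 52.8%. With 48 nt or less as the limit 0 pairs were called, and with below 75 nt 1 was. With 30 nt or less, chosen after seeing the data, it was 0 (fewer pairs are in the count in each case). An adjusted p under 0.10 gave 4 calls, with FTL added. A RED threshold of log2(1.5) left 15.3% of close pairs past it, against 51.0%. The spread of 0.53 as an interquartile range was 0.40 as an SD and 0.27 as a median absolute deviation, which are other measures. With 10 further signal variants, 67.3% of close pairs had a signal at both PASs, against 42.5%, and 10.9% had none of its own at the dPAS, against 26.2%. With at least 7 A in 10 nt, 25.5% of pPASs were A-rich, against 20.1%. The UGUA difference of −0.133 was −0.174 with 60 nt windows. The bases between the PASs alone held 0.378 UGUA per close pair, a count with no pPAS term that cannot be negative. No paired analysis was possible because each gene has 1 deposited RED and no value per sample, so a replicate block and leaving out each replicate were not run. Depth per gene is unknown, so a low call rate and few reads cannot be told apart.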
